A study of Mus musculus with 38 samples.

Results

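The retained-intron transcripts of protein-coding genes are gene models in which a processed transcript of a coding gene still holds sequence that other transcripts of the gene splice out, and to which the annotation gives no coding sequence (CDS). They were taken as the transcripts without a CDS that GENCODE M21 types as retained_intron at a protein_coding gene, those on the minus strand from the deposited 5′ UTR segments and those on the plus strand from the deposited 3′ UTR segments. Of 75208 transcripts without a CDS, 21403 from 9117 genes met this rule, 10518 on the minus and 10885 on the plus strand. They had 93501 exon segments, and 88343 of these (94.5%) overlapped a CDS segment on the same strand and were dropped, since their footprints cannot be told from those of translated exons. The 5158 segments kept, of 949728 segments in the series, lay at 4865 distinct positions and belonged to 4135 transcripts of 2834 genes. For 17268 transcripts no segment was kept. For each gene, the transcript with the longest kept length was taken as 1 feature, and its kept segments were summed. Kept segments found only in other transcripts of the gene were left out. This gave 2834 features with a median length of 183 nt, of which 631 had no count in any library and 14 overlapped a small RNA.

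By number of positions most of these segments overlapped untranslated exons, while 33.5% of their bases lay in exons of coding transcripts. Of the 4865 positions, 3604 (74.1%) overlapped untranslated exons of coding transcripts of the same gene, 3365 of them a 5′ UTR and 247 a 3′ UTR. Only 813 positions (16.7%) lay wholly outside the exons of coding transcripts and outside other genes, and 448 (9.2%) overlapped another gene. The 813 are called intronic here, but whether they lie inside an intron of a coding transcript was not checked. The features of the first kind held 83.0% to 87.3% of all member counts in a library. Footprints were counted at 0.0987 per nt and library over the whole length of the positions that overlapped untranslated exons. They were counted at 0.0594 in the segments that overlapped another gene and at 0.00748 in the intronic ones. Of the bases of the 3604 positions, 43.6% lay in exons of coding transcripts, and 2769 of these positions lay wholly inside such exons. The values below are therefore mostly those of first exons of retained-intron models that overlap untranslated exons of coding transcripts. They are called leader exons here where a 5′ UTR was overlapped.

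In an mRNA, the 40S ribosomal subunit binds near the cap and scans the 5′ UTR until it meets a start codon, where the 80S ribosome forms. Ribosomes that initiate upstream of the main start codon translate upstream open reading frames, which often lower translation of the CDS. A transcript with a retained intron is commonly held in the nucleus or degraded after premature termination, and some neuronal transcripts with retained introns are stored and spliced after activity. A footprint in an exon that several transcripts share cannot be assigned to one of them.

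Most member positions were first exons of their transcripts, and no first exons of coding transcripts were measured beside them. Of the 4865 positions, 73.4% were the first exon of their transcript, and these first exons carried 91.3% of the counts. Of 3916 positions that were not the last exon of their transcript, 3181 (81.2%) ended where an exon of a coding transcript on the same strand ended. Coding transcripts of any gene and their last exons were included in this match. Of the 3916, 98.7% were followed by GT, the first bases of most introns. The share ending at such an exon end was 97.4% among positions that overlapped untranslated exons (2905 of 2983). The 608 intronic positions cannot end at one by their definition, and 97.7% of them were followed by GT. The windows below hold 15 bases of the exon and 15 of the intron in mm10, with the first bases of the intron in capitals. They show 6 leader exons that end where an exon of a coding transcript ends, and last the intronic first exon of Tenm1, which does not. They are shown as first exons of members described below, for Syt1 1 of the 2 segments of the feature, at chr10:109010561-109010590 on the minus strand, chr5:92083514-92083543 on the minus strand, chr1:153487518-153487547 on the minus strand, chr4:134923753-134923782 on the plus strand, chr6:124931572-124931601 on the plus strand, chr9:75409848-75409877 on the minus strand and chrX:43428273-43428302 on the minus strand, in that order.
Syt1: cggtcctcgctccagGTaaggcagccccac
G3bp2: cgctgttggttggagGTgtgtacgggggcc
Dhx9: gaaaagcggaggaggGTaagaaagggggcg
Rsrp1: cttcatccgtttaagGTgagtggggccgct
Mlf2: cggagtcggggaccgGTgaggccagggcgc
Mapk6: agtcggagaagtcccGTgagtgtgtatgtg
Tenm1: ttgcgcctggactagGTaggtccgcttctt

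Counts were the 5′ ends of footprints with no shift to the decoded codon, so a ribosome on a start codon is counted a little upstream of it. Of the positions that overlapped a 5′ UTR, 869 (25.8%) ended within 15 nt of a start codon along the spliced transcript, 1587 (47.2%) at 16 to 100 nt, 693 (20.6%) beyond that up to 300 nt and 216 (6.42%) farther away. The density was 0.154 counts per nt and library in the nearest class, 0.110 in the next, 0.0735 in the third and 0.0771 in the farthest. The nearest class held 31.8% of the counts and can include ribosomes that were starting on the CDS. The following windows are the last 27 bases of the spliced 5′ UTR with the start codon in capitals, for 5 members whose exon ended 9, 10, 13, 15 and 0 nt before that codon in this order. In mm10 they span chr13:54765681-54766322 on the minus strand, chr12:12304306-12340691 on the plus strand, chr2:156179225-156179900 on the minus strand, chr17:31855047-31855683 on the minus strand and chr11:52232092-52236839 on the plus strand, each with an intron between its ends.
Sncb: cccggccccgaaacccaggccgccaggATG
Fam49a: ctggagattatttccaggtttgctggcATG
Rbm39: ggaagcccgcacaggcgagtagagaaaATG
Sik1: agggcggcggaggtgcggcccgaagccATG
Skp1a: gggcctgcggtcttgagacggagcaccATG

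The libraries were made from primary cortical neurons of CD-1 mouse embryos by PL-Ribo-seq, in which a biotin ligase marks the proteins around it and ribosome footprints are read from part of the monosome fraction of a lysate (input) and from the streptavidin pulldown of the remaining monosomes. The ligase was TurboID-PSD95, which was targeted to dendrites, or Pan-TurboID, which carries no localization element, both expressed from doxycycline-inducible lentivirus. In the KCl experiment, resting neurons and neurons depolarized with 55 mM KCl for 1 h after silencing with tetrodotoxin and DL-AP5 for 2 h were profiled with each bait as input and pulldown (8 groups, 3 libraries each). With TurboID-PSD95 alone, neurons received the mGluR agonist DHPG at 100 µM for 10 min, again after silencing for 2 h (input and pulldown, 3 libraries each), or 20 nM siRNA against eIF4G2 for 72 h and were then resting or depolarized (4 groups, 2 libraries each). All 38 libraries, in 14 groups, had cycloheximide for 2 min and, per the labels, biotin for 30 min. The study's text gives a shorter biotin time for DHPG. No untreated group of the DHPG experiment and no libraries with a control siRNA were analysed here, so neither treatment is compared with its own control. Labels name separate replicates, and the study's methods call them biological.

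Libraries held 2048601 to 14646331 CDS counts (12.5% to 49.2% of the library total) and 13193 to 267127 member counts, of which 496 to 6928 were in intronic members. Summed neuronal marker CDS (9 genes) lay at 5370 to 11349 counts per 1000000 CDS counts (CPM), against 90.6 to 984 for 6 astrocyte genes, 6.81 to 122 for 6 oligodendrocyte genes and 0 to 20.0 for 6 microglia genes. Eif4g2 CDS lay at 205 to 337 CPM in the libraries with eIF4G2 siRNA and at 299 to 811 CPM in the others. Counts of 9 nuclear RNAs came to 157 to 560 CPM in inputs and 1207 to 7692 in pulldowns, and those of snRNA, snoRNA and scaRNA genes 6426 to 36588 and 17495 to 217537. Replicate numbers paired the KCl libraries within a state.

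Members gave fewer footprints, relative to CDS, in every pulldown than in its input. With Pan-TurboID at rest, the inputs held 22.2, 27.5 and 25.6 member counts per 1000 CDS counts (replicates 1 to 3) and the pulldowns 8.07, 11.4 and 8.13. With TurboID-PSD95 at rest, the inputs held 19.2, 28.5 and 25.1 and the pulldowns 6.33, 11.8 and 7.05. No resting pulldown reached the lowest resting input. Over both baits the resting means were 8.79 ± 2.27 in pulldowns and 24.7 ± 3.48 in inputs (SD, n = 6 each), a difference of -15.9 per 1000, with p = 0.005 in a two-sided exact permutation test within each bait, the smallest p this test allows.

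After KCl, the Pan-TurboID inputs held 19.7, 30.7 and 32.1 and the pulldowns 5.68, 13.5 and 14.3. The TurboID-PSD95 inputs held 28.3, 37.2 and 30.3 and the pulldowns 6.41, 22.1 and 11.1. The second of these pulldowns stood above all other pulldowns and above the first depolarized Pan-TurboID input. The depolarized means were 12.2 ± 6.03 in pulldowns and 29.7 ± 5.77 in inputs (SD, n = 6 each; exact permutation test, two-sided, p = 0.005), and without replicate 2 the difference was -18.2 instead of -17.5 per 1000. The log2 ratio of pulldown to input averaged -1.41 after KCl and -1.52 at rest, and these did not differ beyond their spread (exact permutation test, two-sided, p = 0.695, n = 6 each).

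Pulldowns lay below inputs in the other experiments as well. The DHPG inputs held 19.8, 18.3 and 18.3 and the pulldowns 5.33, 5.81 and 7.20 member counts per 1000 CDS counts, with p = 0.1 in an exact permutation test, the smallest that 3 against 3 allow. With eIF4G2 siRNA, the resting inputs held 17.3 and 17.3, the resting pulldowns 6.03 and 7.02, the depolarized inputs 24.7 and 26.2 and the depolarized pulldowns 6.81 and 7.35. Inputs after KCl held more than inputs at rest within the siRNA libraries, while in the KCl experiment the inputs differed by 5.02 per 1000 with p = 0.11 (exact permutation test, two-sided, n = 6 each) and overlapped.

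**Figure D1:**
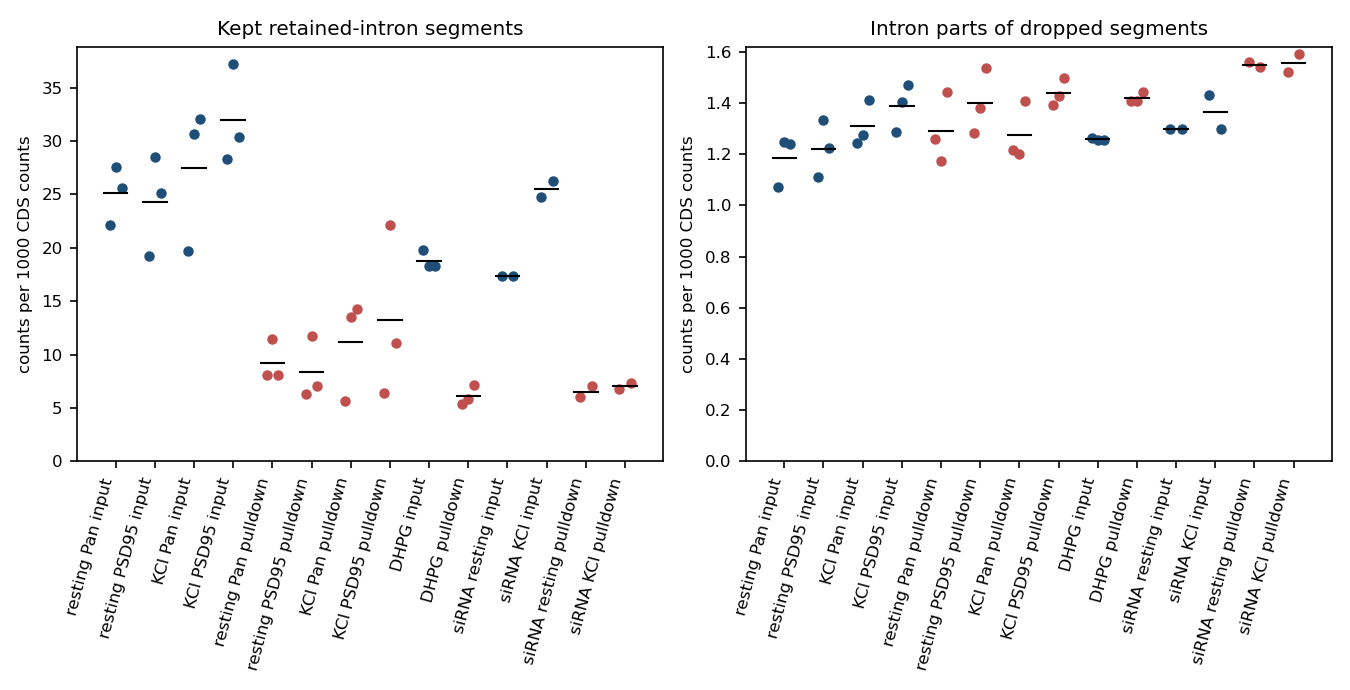
Counts per 1000 CDS counts (vertical axes) in each of the 38 libraries by group, for the kept segments at the left and for the intron pieces of dropped segments at the right, with inputs in blue, pulldowns in red, replicates from left to right and the group mean as a line. Kept segments lie between 17.3 and 37.2 in inputs and between 5.33 and 22.1 in pulldowns, while the intron pieces lie between 1.07 and 1.59 in all libraries.

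The counts of the members moved with those of the whole 5′ UTR. Footprints in the 5′ UTR of the longest coding transcript of each gene came to 253 per 1000 CDS counts in resting inputs and 85.5 in resting pulldowns (exact permutation test, two-sided, p = 0.005, n = 6 each). Members were 9.44% to 9.95% of that amount in inputs and 9.60% to 11.4% in pulldowns, and part of the reads are the same reads. The log2 ratio of members to the 5′ UTR was higher by 0.076 in resting pulldowns than in resting inputs (exact permutation test, two-sided, p = 0.005, n = 6 each), and by 0.12 with DHPG (exact permutation test, p = 0.1, n = 3 each), and neither pair of groups overlapped. After KCl the difference was 0.050 (exact permutation test, two-sided, p = 0.375, n = 6 each), and the groups overlapped. The 3′ UTR went the other way, from 20.8 in resting inputs to 28.1 in resting pulldowns (exact permutation test, two-sided, p = 0.005, n = 6 each).

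**Figure D2:**
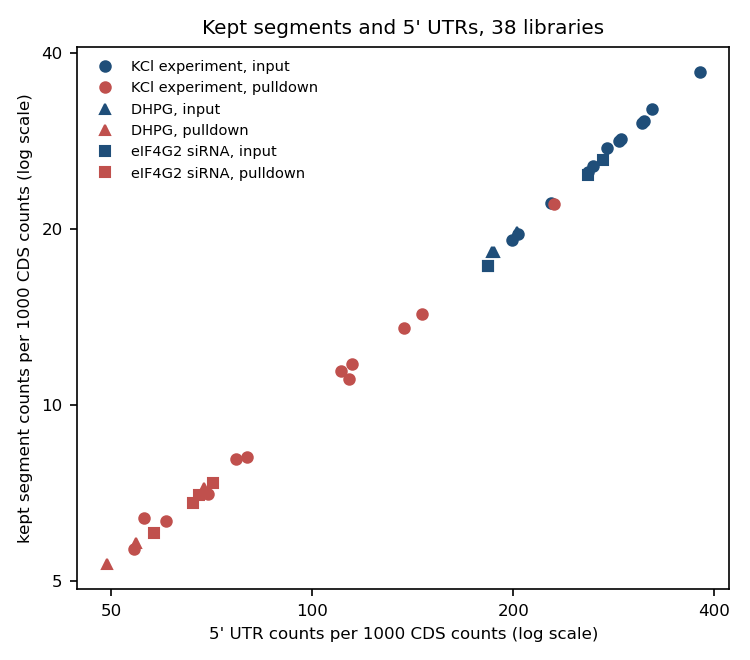
Member counts against counts in the 5′ UTR of the longest coding transcripts, both per 1000 CDS counts on log axes, 1 point per library. Points lie near 1 line, with members at 9.44% to 11.4% of the 5′ UTR amount in all 38 libraries.

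Sequence outside the exons of coding transcripts behaved otherwise when it was taken from the dropped segments. Removing all CDS and UTR exons from those segments left pieces in 7272 features, chosen after the data were seen, with 1.07 to 1.47 counts per 1000 CDS counts in inputs and 1.17 to 1.59 in pulldowns. These pieces stood at 1.35 in resting pulldowns and 1.20 in resting inputs (exact permutation test, two-sided, p = 0.075, n = 6 each), and the log2 ratio of members to pieces differed by -1.67 between pulldown and input (p = 0.005 in the same exact test). The intronic members, in contrast, fell with the leader exons, from 0.638 ± 0.124 in resting inputs to 0.261 ± 0.0514 per 1000 in resting pulldowns (SD, n = 6 each, p = 0.005 in the same exact test), and 91.0% of their counts lay in first exons. Nuclear and small nuclear RNAs were higher in pulldowns, as given above, and their part in these differences was not tested.

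Gene by gene, 1304 of the 2834 features passed the filter on low counts in the KCl experiment. In resting TurboID-PSD95 pulldowns against resting inputs, 645 of these 1304 (49.5%) were called lower and 4 higher by edgeR's quasi-likelihood test at a Benjamini-Hochberg false discovery rate of 0.05, where 19.8% of all rows tested were called lower and 13.2% higher. The median log2 fold change was -1.52 for the features and 0.13 for the CDS of the same genes, of which 300 of 1294 were called higher and 182 lower. The fold of a feature against its own CDS, tested in 1 model, was called lower for 601 of 1291 (46.6%) and higher for 7 (0.542%). Without replicate 3 no feature was called at this threshold, although the median stayed at -1.44 and 466 features had an unadjusted p under 0.05. In that fit 0.0615% of all rows were called. Scaled by the members' own TMM factors, which remove a shift that members share and move the median of all tested CDS from -0.05 to 1.45, 55 features were called higher and 36 lower, with a median of -0.10. Of all rows, 62.1% were called under this scaling, with 9161 CDS higher and 8 lower.

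Syt1, the calcium sensor of synaptic vesicle release, had the highest member level, 335 CPM on average over the 38 libraries. Of its feature of 3488 nt, 14.0% lay in exons of coding transcripts. The feature lay at 397, 686 and 448 CPM in resting TurboID-PSD95 inputs, at 445, 623 and 477 in resting Pan-TurboID inputs and at 94.4, 259 and 114 in resting TurboID-PSD95 pulldowns. The pulldowns did not overlap the inputs, and the log2 fold change was -1.69 ± 0.41 (SE, edgeR quasi-likelihood test, adjusted p = 0.00509), against 0.12 ± 0.25 for the CDS (adjusted p = 0.741). With eIF4G2 siRNA at rest it lay at 285 and 243 CPM in inputs and 65.98 and 82.8 in pulldowns, and with DHPG at 506, 477 and 463 in inputs and 110, 126 and 154 in pulldowns, so that each experiment gave lower pulldowns.

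G3bp2, a stress granule protein, has a leader exon of 189 nt. It lay at 73.5, 106 and 103 CPM in resting TurboID-PSD95 inputs, at 85.6, 106 and 102 in resting Pan-TurboID inputs and at 24.6, 37.0 and 26.8 in TurboID-PSD95 pulldowns. The groups did not overlap, and the feature fell by 1.68 ± 0.27 on the log2 scale (edgeR quasi-likelihood test, adjusted p = 0.000457) while its CDS stood at -0.08 ± 0.16. Dhx9, an RNA helicase, had 86.9, 80.2 and 99.3 CPM in resting TurboID-PSD95 inputs, 79.5, 76.3 and 80.4 in Pan-TurboID inputs and 22.6, 30.5 and 16.1 in pulldowns of its leader exon of 126 nt. It fell by 1.81 ± 0.31 (edgeR quasi-likelihood test, adjusted p = 0.00063), with the CDS at 0.18 ± 0.17. In both genes the exon was lower in the pulldown and the CDS did not pass the test (adjusted p = 0.728 and 0.406).

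In other genes CDS and member moved in opposite directions. Of the length of the members given here, 27.7% (Slc38a1) and 56.7% (Grm5) lay in exons of coding transcripts. Slc38a1, a glutamine transporter, had CDS levels of 145, 148 and 183 CPM in resting TurboID-PSD95 inputs and 319, 344 and 402 in pulldowns, while its member of 3722 nt lay at 43.9, 80.7 and 73.3 and at 9.51, 13.4 and 17.1. The CDS rose by 1.16 ± 0.22 and the member fell by 2.32 ± 0.34 on the log2 scale (edgeR quasi-likelihood test, adjusted p = 0.00108 and 0.000276). Grm5, a receptor that DHPG acts on, had a member at 33.4, 43.1 and 36.4 CPM in these inputs and 10.3, 18.2 and 9.76 in pulldowns. It fell by 1.68 ± 0.33 with a CDS that rose by 0.78 ± 0.24 (edgeR quasi-likelihood test, adjusted p = 0.00127 and 0.0164). Its pulldowns lay below every input.

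The other features with the smallest p were those of Usp33, a deubiquitinase (-2.50 ± 0.42), Akap9, a scaffold for protein kinase A (-2.19 ± 0.36), Ddx23, a spliceosomal helicase (-2.18 ± 0.37), and Fzr1, an activator of the anaphase-promoting complex (-1.93 ± 0.34), with adjusted p of 0.000569, 0.000457, 0.000617 and 0.000737 in edgeR's quasi-likelihood test. Abundant members of neuronal genes followed. Sncb, a synuclein, had a log2 fold change of -1.66 ± 0.36, Map2, a dendritic microtubule protein, of -1.35 ± 0.38, and Snap25, a SNARE protein, of -0.87 ± 0.24 (edgeR quasi-likelihood test, adjusted p = 0.00256, 0.0103 and 0.00971). In Sncb and Map2 the CDS was lower in the pulldown as well (-0.79 and -0.81), and for Map2 the fold of member against CDS did not pass the test (-0.67 ± 0.45, edgeR quasi-likelihood test, adjusted p = 0.202). The folds of G3bp2 (-0.23), Dhx9 (-0.40), Akap9 (-0.69), Ddx23 (-0.66) and Fzr1 (-0.48) no longer passed with the members' own factors, while those of Slc38a1 (-0.82) and Usp33 (-1.03) did.

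Of 4 lists of genes, few members had a kept segment, and their counts stand beside the 49.5% of all features tested that were called lower. Of 30 genes of the postsynaptic density 9 had a feature and 6 were tested, of which 4 were called lower and none higher. Of 28 core spliceosome genes 5 were tested and 4 called lower, of 32 hnRNP and other splicing repressor genes 7 were tested and 4 called lower, and of 22 SR protein and CLK kinase genes 6 were tested and 3 called lower. Their medians were -1.64, -1.84, -1.28 and -1.28, beside -1.52 for all features tested. Of 21 genes known for retained or detained introns, 2 were tested and neither was called. Of 36 snoRNA host genes 3 were tested and 2 called lower.

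**Figure D3:**
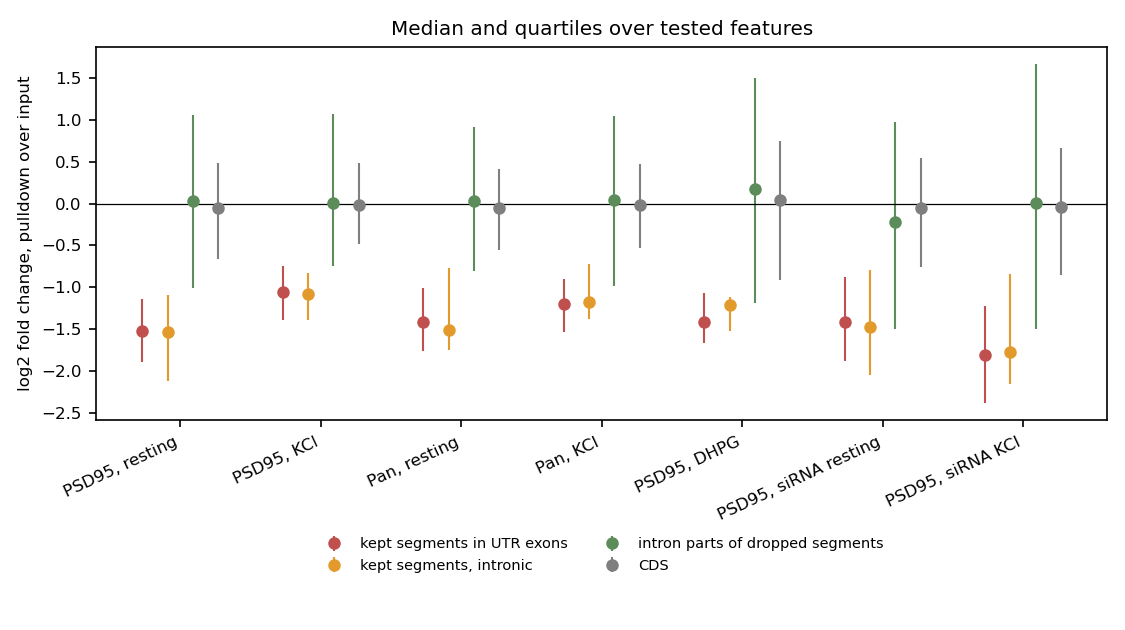
Median (points) and quartiles (bars) of the log2 fold change of pulldown over input (vertical axis) in the 7 pulldown comparisons, over the tested features of segments that overlap UTR exons, the tested intronic features, the intron pieces of dropped segments and the CDS of all genes tested. The medians of both kinds of member lie below -1 in each comparison, and those of the CDS lie near 0.

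The share called lower was alike across positions in the leader. In resting TurboID-PSD95 pulldowns, 198 of 392 features within 15 nt of a start codon were called lower, 335 of 667 at 16 to 100 nt and 97 of 197 farther away. Of features that hold an ATG, 411 of 827 were called lower, and of those without, 234 of 477. Of features wholly inside coding exons 405 of 812 were called lower, and of those with under 50% of their bases in coding exons 155 of 320. Of the 47 intronic features tested, 24 were called lower and none higher.

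Tenm1, a teneurin that acts in synaptic adhesion, carried the highest intronic member, with a first exon of 839 nt on the X chromosome. It lay at 54.1, 83.4 and 63.4 CPM in resting TurboID-PSD95 inputs, at 62.2, 66.9 and 61.8 in Pan-TurboID inputs, and at 19.0, 33.8 and 23.9 in TurboID-PSD95 pulldowns. It fell by 1.33 ± 0.23 on the log2 scale while the CDS rose by 1.11 ± 0.24 (edgeR quasi-likelihood test, adjusted p = 0.000706 and 0.00252). The pulldowns lay below all inputs. With the members' own TMM factors the fold was 0.092 (edgeR quasi-likelihood test, adjusted p = 0.775), and without replicate 3 it was -1.31 and did not pass (adjusted p = 0.0799). Per length the feature stood at 59.2 CPM per kb and the CDS at 52.5 CPM per kb on average over the libraries. Among the next intronic members by level, named after their values were seen, those of Emb, Setd5, Bzw2 and Nav3 had log2 fold changes of -1.55, -1.28, -1.50 and -1.55 in the same comparison and passed edgeR's quasi-likelihood test (adjusted p = 0.00229, 0.0119, 0.02 and 0.00894). Ptprd, a receptor tyrosine phosphatase, stood at -0.12 (adjusted p = 0.768). These 6 were all first exons of their transcripts.

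In the remaining pulldown comparisons most calls were lower as well. Against Pan-TurboID inputs, resting Pan-TurboID pulldowns had 346 features lower and 2 higher of 1304 (7.41% and 4.57% of all rows), with a median of -1.42. With replicate number as a block 646 were lower and 3 higher. The block fit called 29.9% of all rows, against the 7.41% lower and 4.57% higher without it. No feature and no row was called without replicate 2, and likewise without replicate 3, with medians of -1.49 and -1.32. There 562 and 339 features had an unadjusted p under 0.05. After KCl, TurboID-PSD95 pulldowns had 253 lower and 5 higher (7.58% and 10.2% of all rows), with a median of -1.06. The block gave 560 lower and 5 higher, with 33.6% of all rows called against 17.8% without it. Without replicate 1 the calls fell from 258 to 164 (8.87% of all rows called), and without replicate 2 they rose to 388 (22.9% of all rows called), with a median of -1.66. Without replicate 3 all lower calls were lost and 2 higher ones were left (0.109% of all rows called), with a median of -0.96 and 187 features at an unadjusted p under 0.05. After KCl, Pan-TurboID pulldowns had 196 lower and 1 higher (4.7% and 4.86% of all rows), with a median of -1.19. The block gave 544 lower and 2 higher, with 28.9% of all rows called against 9.56% without it. Without replicate 2 or replicate 3 no feature and no row was called, with medians of -1.35 and -1.26. In these fits 438 and 310 features had an unadjusted p under 0.05. Scaled by the members' own factors, the calls were 20 higher and 5 lower for Pan-TurboID at rest, 31 and 16 for TurboID-PSD95 after KCl and 14 and 14 for Pan-TurboID after KCl. In that order 52.0%, 51.6% and 45.8% of all rows were called. These comparisons with TurboID-PSD95 share the Pan-TurboID inputs with those of Pan-TurboID.

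With DHPG, 918 of 1041 features were lower in the pulldown and 23 higher, where 43.0% of all rows were lower and 37.4% higher, and the median was -1.41. Replicates lay closer together than in the KCl experiment. The chi-square per degree of freedom between replicate inputs, near 1 for counting noise alone, was 1.48 to 1.90 with DHPG. It was 2.81 and 3.07 with the siRNA and 8.61 to 27.8 in the KCl experiment. Counts of calls depend on this spread and are not compared between experiments. Mef2c, an activity-regulated transcription factor, had a member with 6.24% of its length in exons of coding transcripts. The member lay at 116, 128 and 133 CPM in inputs and 26.6, 30.3 and 28.9 in pulldowns. It fell by 1.93 ± 0.09 and its CDS rose by 0.43 ± 0.06 (edgeR quasi-likelihood test, adjusted p = 4.73e-13 and 1.39e-06). With eIF4G2 siRNA, 488 of 983 features were lower and 8 higher at rest (26.4% and 19.1% of all rows, median -1.41), and 616 were lower and 4 higher after KCl (28.4% and 21.2% of all rows, median -1.79). Without replicate 1 or replicate 2 of both groups compared, which leaves 1 library in each, the resting medians were -1.39 and -1.44. Scaled by the members' own factors, the calls were 128 higher and 126 lower with DHPG, 56 and 85 with the siRNA at rest and 51 and 113 after KCl. In that order 74.8%, 57.9% and 65.2% of all rows were called. Ptprs, a receptor tyrosine phosphatase, had the member of 50 nt with the smallest p of those named in the siRNA comparisons. It lay at 113 and 107 CPM in resting siRNA inputs and 7.72 and 2.56 in pulldowns, with log2 fold changes of -4.16 ± 0.27 at rest and -5.53 ± 0.32 after KCl (edgeR quasi-likelihood test, adjusted p = 1.1e-11 and 1.2e-12). With DHPG the same member lay at 7.14, 5.90 and 21.8 CPM in inputs and 5.35, 29.9 and 8.03 in pulldowns, and in resting TurboID-PSD95 libraries without siRNA at 8.14, 8.78 and 15.1 in inputs and 5.87, 10.4 and 15.6 in pulldowns. Inputs and pulldowns overlapped in both of these. With Pan-TurboID at rest it lay at 19.7, 20.7 and 107 CPM in inputs and 11.7, 9.35 and 8.06 in pulldowns, which did not overlap.

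Whether KCl altered the difference between pulldown and input was tested feature by feature. No feature of 1304 passed (0.0% of all rows), with 58 at an unadjusted p under 0.05, and DESeq2 called none as well.

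Of the 4 features higher in resting TurboID-PSD95 pulldowns, the member of Luc7l2, a U1 snRNP-associated protein, was 3070 nt long. It lay at 0.154, 0.763 and 0 CPM in TurboID-PSD95 inputs, at 0.379, 0 and 1.28 in Pan-TurboID inputs and at 10.2, 10.6 and 4.88 in TurboID-PSD95 pulldowns. Sod2, the mitochondrial superoxide dismutase, had 0.844, 0.191 and 0.52 CPM in TurboID-PSD95 inputs, 0.505, 0 and 0.511 in Pan-TurboID inputs and 4.75, 2.30 and 2.93 in pulldowns. Both were near 0 in the inputs and passed the filter on low counts through pulldowns, the groups where they were high, so these levels are a description. The other 2 were those of Taf1d and of Rpl6, a ribosomal protein, which overlapped small RNAs of another gene. The part of these small RNAs in the counts was not tested. Taf1d had 6, 0 and 0 counts in resting TurboID-PSD95 inputs and 2, 0 and 1 in Pan-TurboID inputs. In the TurboID-PSD95 pulldowns it had 39, 13 and 12. Taf1d thus also passed the filter through pulldowns, and its levels are a description as well.

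**Figure D4:**
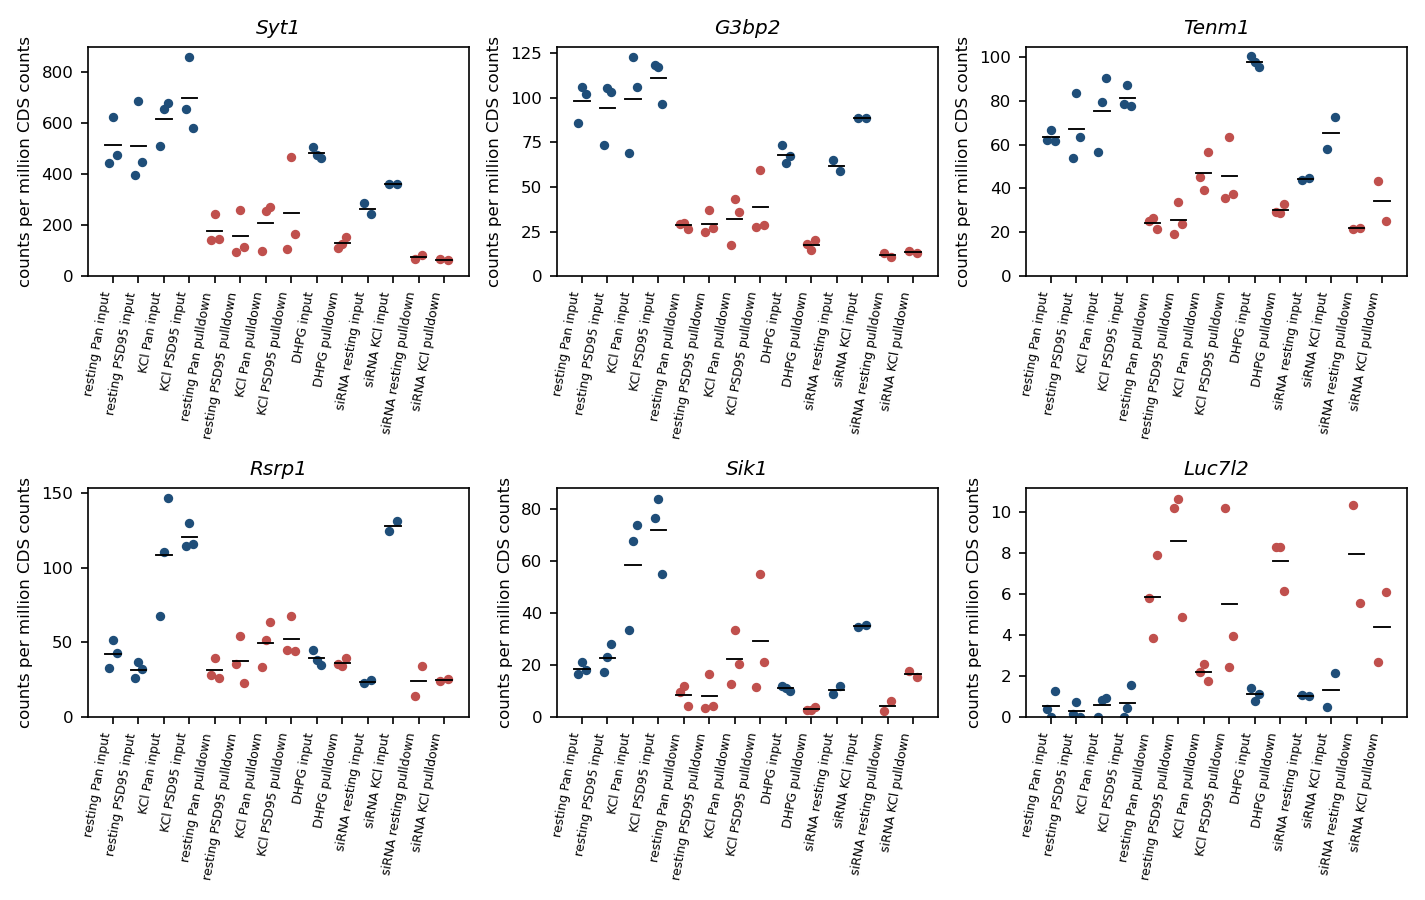
Levels of the members of Syt1, G3bp2, Tenm1, Rsrp1, Sik1 and Luc7l2 in CPM (vertical axes) in each library by group, with inputs in blue, pulldowns in red and the group mean as a line. The Syt1 member lies at 397 to 686 CPM in the resting inputs and at 94.4 to 259 in the resting TurboID-PSD95 pulldowns.

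Between states, the inputs differed at few members. Of 1304 features, 23 were higher and 1 lower after KCl (5.2% of all rows were called higher and 7.93% lower), with a median of 0.22, beside -0.08 for the CDS of the same genes, of which 55 were higher and 154 lower. Without replicate 3 only 2 features were called, without replicate 2 only 8, and without replicate 1 there were 33. In that order the medians were 0.21, 0.26 and 0.21. The shares of all rows called were 2.99%, 5.72% and 13.6%, against 13.1% with all replicates. With replicate number as a block across both states, 46 were higher and 5 lower (17.3% of all rows called). The numbers did not pair libraries across states. Scaled by the members' own TMM factors 6 were higher and 4 lower (5.98% of all rows called), with a median of -0.03. All 23 had a CDS tested, of which 8 were called higher and 1 lower.

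Rsrp1, which encodes a protein rich in arginine and serine, had the smallest p, in a leader exon of 176 nt. The exon lay at 32.9, 51.5 and 42.6 CPM in resting Pan-TurboID inputs and 26.0, 36.6 and 32.0 in resting TurboID-PSD95 inputs, and after KCl at 67.4, 110 and 147 and at 115, 130 and 116. Every depolarized input lay above every resting one. The exon rose by 1.66 ± 0.21 and the CDS by 1.80 ± 0.15 (edgeR quasi-likelihood test, adjusted p = 3.38e-06 and 3.24e-09). With eIF4G2 siRNA the exon lay at 22.6 and 24.9 CPM at rest and 124 and 131 after KCl (2.42 ± 0.25, edgeR quasi-likelihood test, adjusted p = 8.77e-08).

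Sik1, a salt-inducible kinase and the only gene of 30 immediate early genes with a kept segment, has a leader exon of 122 nt. It lay at 16.4, 21.3 and 18.1 CPM and at 17.2, 23.1 and 28.3 in resting inputs with Pan-TurboID and TurboID-PSD95, and at 33.7, 67.6 and 73.9 and at 76.7, 84.1 and 55.1 after KCl. The groups did not overlap. The exon rose by 1.68 ± 0.36 and the CDS by 1.48 ± 0.17 (edgeR quasi-likelihood test, adjusted p = 0.00286 and 8.67e-07). In the same way both exon and CDS rose for Psph, the last enzyme of serine synthesis (1.18 ± 0.27 and 1.39 ± 0.20), and for Rbm39, a splicing factor (0.81 ± 0.20 and 0.53 ± 0.13), with adjusted p of 0.0042, 2.78e-05, 0.00785 and 0.00818 in edgeR's quasi-likelihood test.

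In other genes the member was called in the KCl experiment and the CDS was not. Auts2, a gene of neuronal development, had a member of 3695 nt at 9.10, 12.8 and 11.2 CPM in resting Pan-TurboID inputs, 11.4, 17.4 and 15.8 in resting TurboID-PSD95 inputs, and 31.3, 26.5 and 36.3 and 26.8, 39.3 and 30.6 after KCl. It rose by 1.34 ± 0.30 (edgeR quasi-likelihood test, adjusted p = 0.00364), and the CDS stood at 0.30 ± 0.14 (adjusted p = 0.182). The depolarized inputs lay above all resting ones. The members of Mbnl2, a splicing regulator, Scn2a, a voltage-gated sodium channel, and Plagl1, a zinc finger transcription factor whose member overlaps a small RNA, rose by 1.44 ± 0.34, 1.10 ± 0.28 and 0.86 ± 0.22 (edgeR quasi-likelihood test, adjusted p = 0.00507, 0.00845 and 0.0107), with the CDS at 0.50, 0.52 and -0.10. For none of these 4 did the fold of member against CDS pass its own test (adjusted p = 0.295, 0.479, 0.671 and 0.295 in the edgeR ratio model). In siRNA inputs the CDS of Auts2 and Mbnl2 rose after KCl (0.78 and 0.94, edgeR quasi-likelihood test, adjusted p = 0.00227 and 0.00297). There the CDS of Scn2a and Plagl1 (0.19 and 0.24) and the member of Scn2a (0.30) did not pass (adjusted p = 0.300, 0.407 and 0.553 in the same edgeR test). Rbm39 (0.57), Scn2a (0.83) and Plagl1 (0.66) no longer passed with the members' own factors. The share of the member's length in exons of coding transcripts was 9.36% for Auts2, 100.0% for Mbnl2, 8.35% for Scn2a and 26.5% for Plagl1. The only lower member was that of Cemip2, a transmembrane hyaluronidase, at -1.14 ± 0.33 (edgeR quasi-likelihood test, adjusted p = 0.0222).

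**Figure D5:**
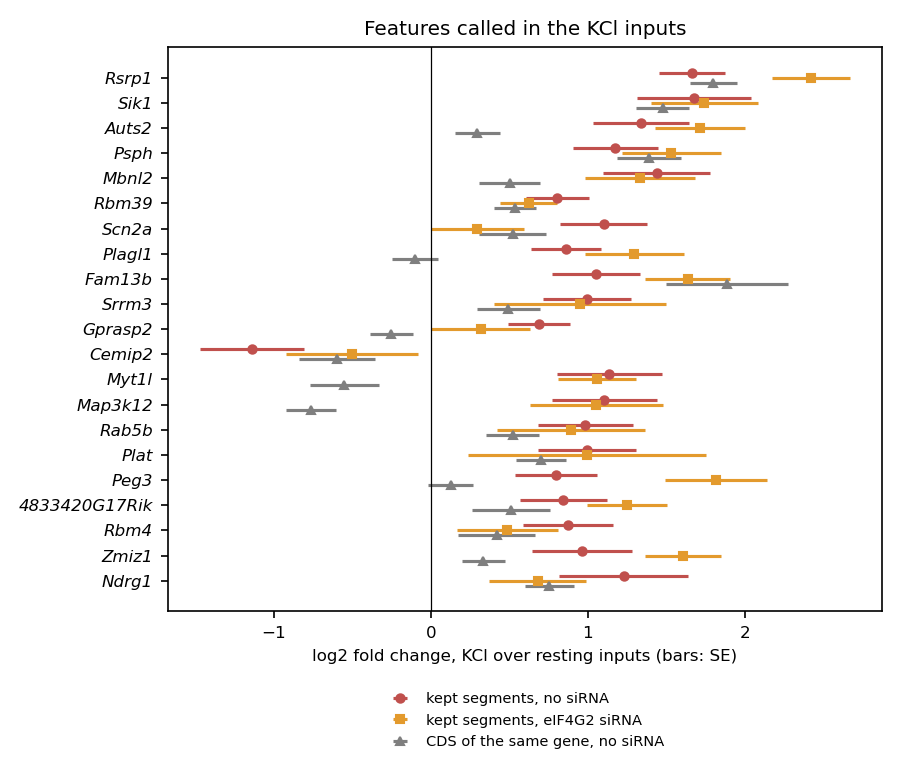
Log2 fold change, depolarized over resting inputs, of the 21 members called in the KCl experiment and tested in both experiments (circles), of the same members in the eIF4G2 siRNA libraries (squares) and of their CDS in the KCl experiment (triangles), with bars for the standard error. Rsrp1 lies at 1.66 in the KCl experiment and at 2.42 in the siRNA libraries, and Cemip2 is the only one of these members below 0.

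The siRNA libraries gave the same comparison in separate samples. Of the 23 features, 20 were tested there, all 20 were above 0 and 12 were called higher. Over all members tested there, 93 of 983 were higher and 1 lower (8.33% and 9.76% of all rows), with a median of 0.52. The median was 0.60 without replicate 1 and 0.52 without replicate 2 of both groups compared. Scaled by the members' own factors, 13 were higher and 5 lower (33.1% of all rows called). Of the 978 features tested in both experiments, 664 were above 0 in both and 66 below 0 in both. Mlf2 had a leader exon of 201 nt at 145 and 132 CPM at rest and 278 and 264 after KCl (0.96 ± 0.13, edgeR quasi-likelihood test, adjusted p = 5.42e-06), with the CDS at -0.22 ± 0.10, and did not pass when scaled by the members' own factors (0.42). Ctnnb1, which encodes beta-catenin, rose by 1.07 ± 0.14 (edgeR quasi-likelihood test, adjusted p = 6.52e-06). The single lower member was that of Rpsa, a ribosomal protein gene, at 33.2 and 32.3 CPM at rest and 12.4 and 11.8 after KCl, together with its CDS (-1.43 ± 0.37 and -1.21 ± 0.16, edgeR quasi-likelihood test, adjusted p = 0.00745 and 4.57e-06).

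The fold of member against CDS was called for 5 of 1291 features in the KCl inputs, all higher (0.387%), those of Mapk6, Zc3h7b, 4833439L19Rik, Myt1l and Wbp11. In 4 of these the CDS was called lower and the member was not called, and in Myt1l the member was called higher and the CDS was not called. The members of Zc3h7b and Myt1l overlapped another gene. Without replicate 3 none was called and without replicate 2 only 1 was. Mapk6, an atypical MAP kinase, had CDS levels of 68.6, 65.3 and 66.4 CPM and 52.0, 74.6 and 51.2 CPM in resting inputs with Pan-TurboID and TurboID-PSD95, and of 10.4, 7.93 and 3.82 and 5.11, 11.7 and 5.34 after KCl. Its first exon, 134 nt long and 618 nt upstream of the start codon, lay at 58.3, 61.2 and 53.1 and at 49.8, 87.6 and 58.5 CPM at rest and at 38.4, 74.8 and 74.4 and at 51.1, 78.0 and 76.2 after KCl. The CDS groups were far apart and the exon groups overlapped. The CDS fell by 3.10 ± 0.25, the exon stood at 0.12 ± 0.36, and the fold of exon against CDS rose by 3.27 ± 0.48 (edgeR quasi-likelihood test, adjusted p = 2.54e-09, 0.882 and 0.000141).

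With eIF4G2 siRNA the Mapk6 CDS lay at 50.1 and 51.0 CPM at rest and 3.11 and 4.36 after KCl, and the exon at 42.4 and 34.0 and at 54.1 and 48.8. The fold of exon against CDS rose by 4.23 ± 0.50 (edgeR quasi-likelihood test, adjusted p = 0.00102). In that experiment the median fold of member against CDS was 0.66. Without replicate 1 or replicate 2 of both input groups, which leaves 1 library in each, it was 0.73 and 0.64. With all replicates 21 of 978 features were called, all higher (2.15%). They included the members of Kif1b, a kinesin (member 0.91 ± 0.17, CDS -1.08 ± 0.08), and Cntn1, a neuronal adhesion protein (member 0.83 ± 0.24, CDS -0.71 ± 0.08), where both parts passed edgeR's quasi-likelihood test in opposite directions (adjusted p = 0.000285, 3.54e-10, 0.0144 and 2.01e-07).

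Within pulldowns, TurboID-PSD95 gave 29 features higher and 1 lower after KCl (3.03% and 2.83% of all rows), with a median of 0.71. Without replicate 3 none was called (0.472% of all rows), with a median of 0.70 and 96 features at an unadjusted p under 0.05. Without replicate 2 only 1 was called (0.661% of all rows called), with a median of 0.42, and without replicate 1 there were 93 (10.2% of all rows called). With the block across both states 70 were higher (8.98% of all rows called, against 5.85% without it). Scaled by the members' own factors 1 was higher and 2 were lower (2.33% of all rows called), with a median of -0.02. Bud31, a splicing factor, had 5.87, 5.22 and 3.42 CPM at rest and 9.24, 28.1 and 16.4 after KCl (1.89 ± 0.39, edgeR quasi-likelihood test, adjusted p = 0.00434), and Rlim, a ubiquitin ligase, rose by 1.90 ± 0.45 (adjusted p = 0.0122 in the same edgeR test). Neither passed when scaled by the members' own factors (1.17 and 1.07). The lower one was again Rpsa (-3.12 ± 0.81, edgeR quasi-likelihood test, adjusted p = 0.0223). It had few counts, 34, 50 and 7 at rest and 0, 8 and 2 after KCl. Replicate 2 had the highest share of member counts of the pulldowns, as given above.

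Pan-TurboID pulldowns gave 4 features higher and 2 lower (1.55% and 2.67% of all rows), and 10 and 3 with the block across both states (6.43% of all rows called). None was called without replicate 3, 2 without replicate 2 and 17 without replicate 1 (0.437%, 1.11% and 4.53% of all rows called). With the members' own factors none was higher and only Cemip2 lower (0.711% of all rows called). Those named by rule were Auts2 (1.81 ± 0.45), Tenm1 (1.01 ± 0.25) and Fut8, a fucosyltransferase (1.55 ± 0.39), which rose, and Cemip2 (-1.74 ± 0.50), which fell (edgeR quasi-likelihood test, adjusted p = 0.0193, 0.0202, 0.0216 and 0.046). The other lower one, of Washc2, had 5, 6 and 12 counts in the resting pulldowns and 0 in each of the 3 depolarized ones (adjusted p = 0.0417 in the same edgeR test). In siRNA pulldowns 32 of 983 were higher and 19 lower (9.01% and 11.1% of all rows), with a median of 0.08. Without replicate 1 or replicate 2 of both groups compared, which leaves 1 library in each, the medians were 0.00048 and 0.0. Scaled by the members' own factors, 14 were higher and 24 lower (16.1% of all rows called).

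The gene targeted by the siRNA holds a member of its own, a leader exon of Eif4g2. In inputs it lay at 22.2, 35.6 and 81.4 CPM (Pan-TurboID) and 19.3, 38.9 and 45.7 CPM (TurboID-PSD95) at rest, at 43.6, 34.2 and 40.1 and 19.2, 40.4 and 23.2 after KCl, and at 85.0, 82.8 and 83.7 with DHPG. With eIF4G2 siRNA it lay at 53.3 and 46.2 at rest and 55.2 and 70.2 after KCl. The CDS lay at 284 and 284 CPM at rest with the siRNA and at 546 to 635 CPM in resting inputs without it. The member did not show the lower level that the CDS had, and since the libraries come from separate experiments this was not tested. Bulk footprints cannot tell fewer ribosomes per mRNA from less mRNA, or fewer cells of a type from less RNA per cell.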

How the data were processed

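The members and gene lists were chosen with earlier results of these data known. According to the labels and methods, the authors aligned footprints to mm10 and counted 5′ ends per exon segment with plastid. For each library the deposited files hold raw counts of segments, apart for CDS and either UTR, with no replicates pooled. Alignment names mark removed ribosomal RNA and duplicates, and the use of strand was not stated. The deposited RPKM values, which divide these counts by length and by the library's total, served only to recover that total. Counting 5′ ends with no offset moves initiating ribosomes into the 5′ UTR, and removal of duplicates can flatten abundant short regions.

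Segments that overlapped a CDS on the same strand were dropped. For each gene the kept segments of the transcript with the longest kept length were summed, and the rows were joined to the CDS counts of 22478 genes. edgeR 4.0.16 (R 4.3.3) was fitted per experiment with CDS totals as library sizes, TMM factors of the CDS, the filterByExpr filter and the robust quasi-likelihood test, with Benjamini-Hochberg adjustment over all rows and a threshold of 0.05. Plain CPM are not TMM-scaled. Fold changes of member against CDS came from 1 model over both kinds of column. The shares of member counts were compared by exact permutation tests within bait, 3 against 3 for each (400 arrangements), or of 3 against 3 for DHPG, without the replicate pairing. Features were named by a rule: the 8 (in the inputs between states and in resting TurboID-PSD95 pulldowns) or 3 (elsewhere) of lowest p per direction, called and moving alike in all replicates, the 10 highest in CPM, and up to 4 per list. Same-numbered CDS deviations correlated at r = 0.118 to 0.642 within a state of the KCl experiment, so the numbers pair libraries there, and at -0.261 to 0.358 across states. The study's methods also process input and pulldown from 1 lysate. No pair of replicates agreed within counting noise (lowest chi-square per degree of freedom 1.48). Alternatives were other scaling, filters, tests, transcripts, intronic segments alone, the block and each replicate left out. Scripts were tested on simulated data.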

Additional observations from a re-analysis of the deposited data

How the results depend on the processing

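With DESeq2 1.42.0 instead of edgeR's quasi-likelihood test, the calls were 42 between states in inputs, 63 in TurboID-PSD95 pulldowns and 13 in Pan-TurboID pulldowns, 432 for pulldown over input with TurboID-PSD95 after KCl, and 525 at rest and 363 after KCl with Pan-TurboID. The edgeR likelihood ratio test gave 51, 74, 18, 422, 535 and 362 for the same 6 comparisons, 126 between states in siRNA pulldowns, and 14, 585 and 142 for the fold of member against CDS in the KCl inputs, the depolarized pulldowns and the siRNA inputs. The shares of all rows called by DESeq2 and by the likelihood ratio test are not given here. Scaling by the TMM factors of the members themselves removes a shift they share, and the shares of all rows called under it are given above. It moved the median of the resting TurboID-PSD95 comparison from -1.52 to -0.10, with 91 calls (55 higher, 36 lower), and gave 47 after KCl, 25 and 28 with Pan-TurboID, 254 with DHPG (128 higher, 126 lower), 141 and 164 with the siRNA at rest and after KCl, 10, 3 and 1 between states in inputs and the 2 kinds of pulldown, and 18 between states in siRNA inputs. Under this scaling Tenm1 (0.092 in resting TurboID-PSD95 pulldowns), Rab14 (-0.092 between states) and Pafah1b1 (-0.15 between states) changed sign, and leaving out 1 replicate number gave -0.045 to 0.12 for Pafah1b1 and -0.56 to 0.27 for Eif4g2 between states, where none of these 3 was called.

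With intronic segments alone the calls were 18, 5, 6 and 1 for pulldown over input (TurboID-PSD95 at rest and after KCl, Pan-TurboID at rest and after KCl), 24 with DHPG, 13 and 17 with the siRNA, 1, 3, 1, 3 and 0 between states (inputs, TurboID-PSD95 and Pan-TurboID pulldowns, siRNA inputs and pulldowns), and 0, 23, 9 and 6 for member against CDS (KCl inputs, resting and depolarized pulldowns, siRNA inputs), with fewer features tested. The intron pieces of dropped segments, chosen after seeing the data, differed by 0.141 per 1000 CDS counts at rest, 0.00928 after KCl and 0.160 with DHPG between pulldown and input, against the direction of the members, and by 0.144 between states (exact permutation test, p = 0.04, n = 6 each).

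With replicate number as a block, the fits called 51 features between states in inputs, 71 and 13 in TurboID-PSD95 and Pan-TurboID pulldowns, 565 for TurboID-PSD95 after KCl, and 649 and 546 for Pan-TurboID at rest and after KCl. For the comparisons between states the block joined the same number across states. There same-numbered CDS deviations correlated at a median r of -0.04 (-0.261 to 0.358), so these fits are not paired. In the other comparisons fitted with the block it moved the count of calls by less than 1.5 times. The fits of member against CDS hold each library as a factor and were not run with the block.

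Leaving out 1 replicate number gave 0 to 617 calls for TurboID-PSD95 at rest, 2 to 388 after KCl, 0 to 409 and 0 to 140 for Pan-TurboID, 886 to 973 with DHPG, 254 to 300 and 445 to 465 with the siRNA, 2 to 33, 0 to 93 and 0 to 17 between states, 4 to 10 and 96 to 99 between states with the siRNA, 0 to 510, 0 to 416, 0 to 12 and 0 to 0 for member against CDS (resting and depolarized pulldowns, KCl and siRNA inputs), and 0 to 0 for the change of pulldown over input. The shares differed by -17.1 to -15.0 at rest, -18.2 to -17.0 after KCl, -13.5 to -11.8 with DHPG and 4.56 to 5.88 between states, where the exact test over the libraries left cannot pass 0.05. The cause of these changes was not tested. RLE scaling, no filter on low counts and the transcript with the highest count kept every count of calls within 1.5 times and its direction.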
